A study of Mus musculus with 12 samples.

Results

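Nr4a1, Nr4a2 and Nr4a3 make up the Nr4a family of orphan nuclear receptors, and their transcripts were followed in mouse hippocampal mini-slices after chemical induction of long-term potentiation (LTP). The 3 genes were chosen by name, as the complete Nr4a family, from the 41091 gene identifiers in the count tables, and all 3 were found and passed the filter on low counts in every comparison. All slices came from wild type C57BL/6 mice aged 2 to 3 months, with the dentate gyrus trimmed away. LTP induction consisted of 5 min in 50 uM forskolin, which raises cAMP by activating adenylyl cyclase, and a further 5 min in which 30 mM KCl and 10 mM calcium were present with the forskolin. Vehicle (0.2% DMSO in ACSF) was given to the control slices over the same 10 min. Freezing at 1 hr or 3 hr after treatment gave 4 groups, a control and an LTP group at each time point, with 3 libraries in each. LTP and control slices with the same number and time point came from 1 animal, and the labels do not say whether animals were shared between the time points, so time and animal cannot be told apart in comparisons between them. By the study's methods the mice were male, and libraries were made only from samples in which qPCR had shown a rise of Arc and of the Homer1 short isoform, so the libraries were preselected for an activity response.

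The Nr4a proteins are transcription factors that bind DNA through a zinc finger domain but act without a known physiological ligand, so that their activity is set largely by how much of each is made. Their genes are classical immediate early genes: in neurons, cAMP and calcium signals act through protein kinase A, CREB and the CRTC coactivators at cAMP response elements near the start sites, and Nr4a expression is known to be needed for long-lasting hippocampal memory. As monomers the receptors bind the NGFI-B response element (NBRE), and Nr4a1 and Nr4a2 can also pair with retinoid X receptors.

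Nr4a1 (ENSMUSG00000023034, also called Nur77) lies at chr15:101254269-101274795 on the plus strand of GRCm38, Nr4a2 (ENSMUSG00000026826, Nurr1) at chr2:57106830-57124003 on the minus strand, and Nr4a3 (ENSMUSG00000028341, Nor1) at chr4:48045153-48086447 on the plus strand. All 3 are protein coding, with 4, 6 and 4 annotated transcripts, and no exonic base of any of them is shared with another annotated gene. Their promoters, taken from RefSeq (GRCm38.p6) as 250 bases before to 50 after the annotated start, were searched on both strands for the cAMP response element (CRE, TGACGTCA), for the CRE core (TGACG), for the NBRE (AAAGGTCA) and for the serum response element. The stretches that hold the cores are shown because each of the 3 promoters carried the same number of them. Each is written 5′ to 3′ on the strand of the gene, with the cores in capitals (CGTCA is TGACG read on the other strand).
Nr4a1: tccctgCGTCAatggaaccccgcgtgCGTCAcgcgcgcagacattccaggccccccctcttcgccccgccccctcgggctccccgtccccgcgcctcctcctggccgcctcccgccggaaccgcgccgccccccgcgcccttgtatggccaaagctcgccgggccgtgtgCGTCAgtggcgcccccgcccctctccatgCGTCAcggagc
Nr4a2: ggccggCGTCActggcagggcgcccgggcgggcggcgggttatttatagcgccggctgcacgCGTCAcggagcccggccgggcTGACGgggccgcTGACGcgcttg
Nr4a3: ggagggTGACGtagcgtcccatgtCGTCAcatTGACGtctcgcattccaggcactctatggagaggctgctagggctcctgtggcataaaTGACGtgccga

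The Nr4a1 stretch covers chr15:101266607-101266816 (plus strand), upstream of the RefSeq start and within the GENCODE gene body, since 1 annotated transcript starts further upstream. The Nr4a2 stretch covers chr2:57124104-57124209 (minus strand) and the Nr4a3 stretch chr4:48045068-48045168 (plus strand), the last part of which falls in the first exon of a GENCODE transcript. Each promoter held 4 cores, and in each all 4 lay before the start. They began 233, 213, 69 and 40 bases before the start of Nr4a1, 200, 144, 123 and 111 bases before that of Nr4a2, and 231, 213, 205 and 147 bases before that of Nr4a3. Of 32851 promoters of the same length, 20.8% held at least 1 core and 76 (0.231%) held at least 4. The core holds a CG pair, and the 250 bases before the start were rich in G and C in all 3 genes (74.4%, 80.0% and 63.6% against a median of 52.4% over all promoters). None of the 3 windows held the complete CRE, the NBRE or the serum response element, which were found in 1.79%, 1.51% and 1.63% of all promoters. A match of letters is a description of the sequence and not a binding site.

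The libraries held 37118382 to 50815001 counts each. The 1 hr control library of animal 2 was left out of the tests, since it clustered away from its group in the study, which excluded it, and its values are given apart. Among the libraries used, the 3 hr LTP library of animal 3 stood apart for these genes: it had the highest level of every Nr4a gene among all 12 libraries. The summed level of 8 pyramidal neuron markers (Slc17a7, Camk2a and others) was also highest there, at 4180 CPM against 2690 to 3490 CPM in the other libraries. Markers of trimmed dentate granule cells (Prox1, Dsp, C1ql2, Tdo2) summed to 120 to 221 CPM, and none of these 4 genes was at 0. No marker of any of the 9 cell type lists passed the test in LTP vs. control at either time point, where 0.789% of all genes did at 1 hr and 6.6% at 3 hr. All 5 endothelial and mural markers had log2 fold changes below 0 at 1 hr (-0.46 to -0.066, 4 with an unadjusted p under 0.05) and all 4 oligodendrocyte markers above 0 (0.17 to 0.26, 3 with an unadjusted p under 0.05, which 1190 of 17736 genes had). Without a filter on low counts 1 of 3 deep-layer cortex markers was called higher and 1 of 4 astrocyte markers lower at 3 hr, where 3.32% of all genes were called higher and 1.21% lower. The part of these cells in the Nr4a results was not tested. In bulk slices, fewer cells of a type and less RNA per cell cannot be told apart. Levels are given as CPM, the counts of a gene per 1000000 counts of its library, scaled by TMM, a method that corrects for differences in library composition.

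Nr4a1 had the highest fold change of the family at both time points. At 1 hr its level was 39.7 and 44.2 CPM in the control slices of animals 1 and 3 and 142, 125 and 138 CPM in the LTP slices of animals 1 to 3. The lowest LTP library was thus far above the highest control library, which also holds for the control library left out (56.9 CPM). At 3 hr the control slices were at 59.7, 69.3 and 66.1 CPM and the LTP slices at 129, 106 and 176 CPM, again with no overlap. These levels rest on 1538 to 6678 counts per library. The share of all genes without overlap was not counted, so here and below a lack of overlap only describes the libraries.

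Nr4a2, a receptor best known for its role in dopamine neurons and also induced in forebrain neurons by activity, had the smallest spread relative to its mean in each group, with a coefficient of variation of 1.8% to 15.7%. Its level at 1 hr was 43.6 and 42.5 CPM in control slices (41.2 CPM in the library left out) and 86.6, 91.0 and 83.1 CPM in LTP slices. At 3 hr it was 45.7, 49.8 and 43.9 CPM in control slices and 89.7, 75.3 and 103 CPM in LTP slices. Control and LTP libraries did not overlap at either time point, and the control level was nearly the same at both.

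Nr4a3 had the most counts of the 3 in control slices and the smallest response at 1 hr. Its level was 85.9 and 90.1 CPM in 1 hr control slices (82.0 CPM in the library left out) and 119, 112 and 132 CPM in 1 hr LTP slices. At 3 hr it was 107, 108 and 91.7 CPM in control slices and 142, 143 and 209 CPM in LTP slices. The groups did not overlap at either time point, but the 3 hr LTP value of animal 3 stood well above the other 2, which were nearly equal.

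**Figure D1:**
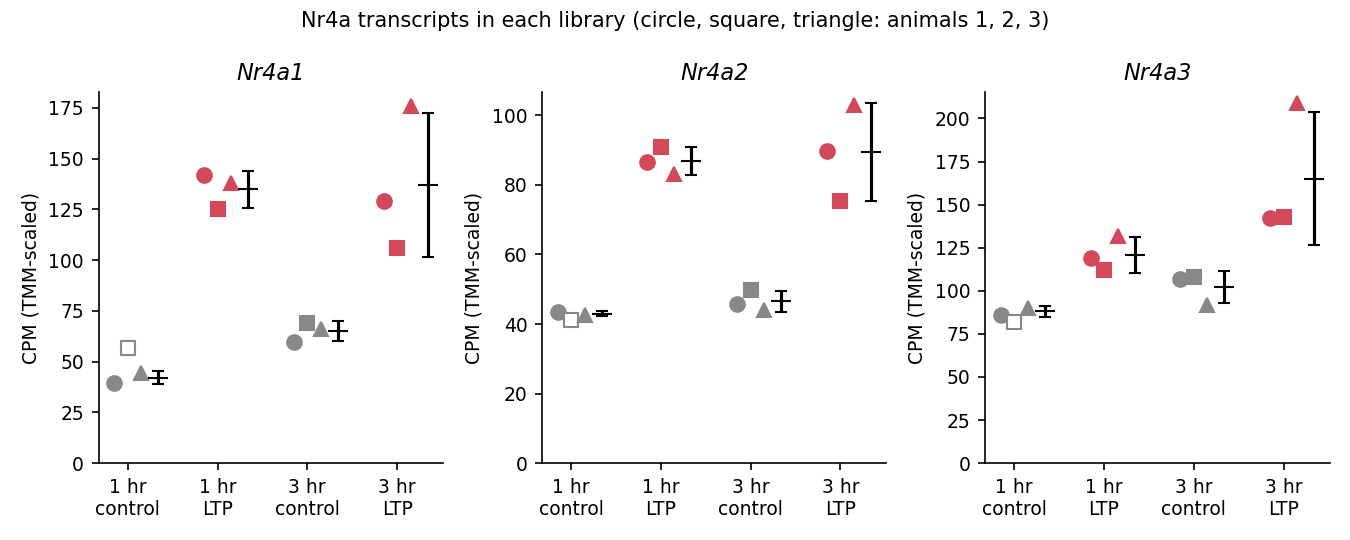
Level of each Nr4a gene in every library in TMM-scaled CPM (y axis, from 0) by group (x axis). Circles, squares and triangles are animals 1, 2 and 3, the open square is the 1 hr control library left out of the tests, and the black bars are mean and SD of the libraries used. All LTP libraries lie above all control libraries of their time point, and animal 3 has the highest 3 hr LTP level of each gene (176, 103 and 209 CPM).

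All 3 genes were upregulated at 1 hr (edgeR quasi-likelihood F test, adjusted p under 0.1 and fold change over 1.2, p-values adjusted by Benjamini-Hochberg over all genes). Of 17736 genes tested, 0.789% were called at 1 hr, 138 of them higher and 2 lower in LTP slices. Nr4a1 rose 3.24-fold (log2 fold change 1.70, SE 0.0829, adjusted p = 1.53e-08). Nr4a2 rose 2.04-fold (log2 fold change 1.03, SE 0.0762, adjusted p = 1.74e-06). Nr4a3 rose 1.38-fold (log2 fold change 0.47, SE 0.0788, adjusted p = 0.00863). By size of the rise, Nr4a1 ranked 75 among all genes tested, against 49 for Arc and 51 for Fos, the standard markers of neuronal activity, while Nr4a2 ranked 306 and Nr4a3 1289. The ranks count genes whether called or not. Only 138 genes were called higher, so many of the genes ranked above Nr4a2 and Nr4a3 were uncalled. The call of Nr4a3 at 1 hr was lost when all 4 groups were fitted in one model (0.46, adjusted p = 0.371), where 0.576% of all genes were called. It was also lost without the control library of animal 1 (0.43), a fit that keeps only 1 control library.

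All 3 genes were also upregulated at 3 hr, when 6.6% of 17508 genes tested were called. Nr4a1 was 2.13-fold higher in LTP slices (log2 fold change 1.09, SE 0.161, adjusted p = 0.0111), Nr4a2 1.94-fold (0.96, SE 0.11, adjusted p = 0.00428) and Nr4a3 1.62-fold (0.70, SE 0.145, adjusted p = 0.0373). By size of the rise they had ranks of 162, 254 and 583 among all genes tested, called or not. Without the LTP library of animal 3 all 3 genes stayed called, with log2 fold changes of 0.86, 0.83 and 0.48. The call of Nr4a3 at 3 hr was lost when any 1 of the 3 control libraries was left out (0.73, 0.74 and 0.63 without animals 1, 2 and 3, adjusted p = 0.129, 0.135 and 0.141). In these fits 1.76%, 1.28% and 2.33% of all genes were called, against 6.6% in the main fit.

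The rise was seen in every animal. Within animals, the log2 ratio of LTP to control for Nr4a1 was 1.84 and 1.64 in animals 1 and 3 at 1 hr, and 1.13 in animal 2 with the control library left out of the tests. At 3 hr it was 1.11, 0.62 and 1.41 in animals 1 to 3. For Nr4a2 the ratios were 0.99, 1.14 and 0.97 at 1 hr (animal 2 again with that control) and 0.97, 0.60 and 1.23 at 3 hr. At 3 hr the order of the animals was thus the same for Nr4a1 and Nr4a2, with animal 2 lowest and animal 3 highest. For Nr4a3 the ratios were 0.46, 0.45 and 0.55 at 1 hr and 0.41, 0.40 and 1.19 at 3 hr, so that 2 of the 3 ratios at 3 hr lay just below those at 1 hr and the third, of animal 3, well above them.

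**Figure D2:**
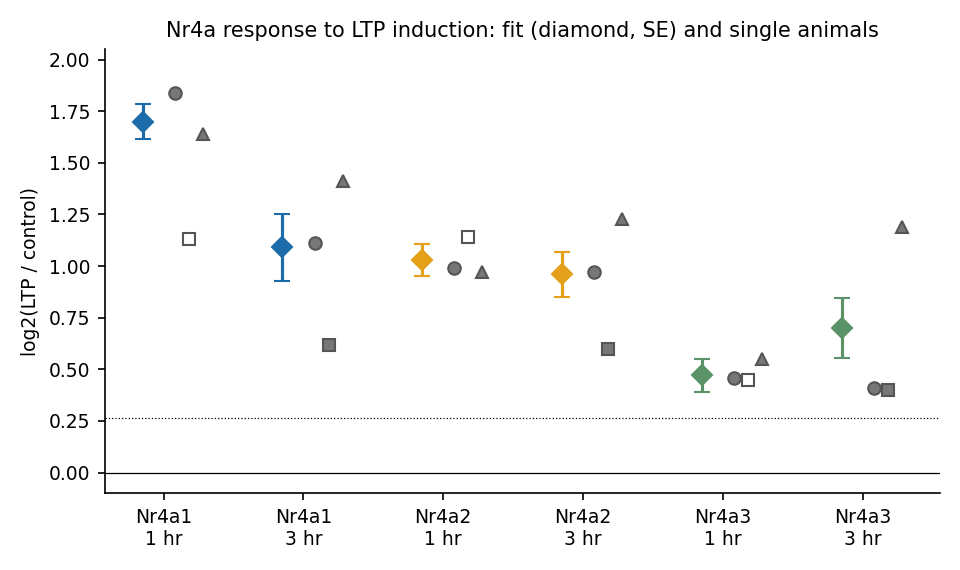
Log2 ratio of LTP to control (y axis) for each Nr4a gene at 1 hr and 3 hr (x axis). Diamonds with bars are the fitted log2 fold change and its SE, circles, squares and triangles the ratios within animals 1, 2 and 3, open squares the animal whose control library was left out, and the dotted line the fold change of 1.2 needed for a call. All ratios are above the dotted line, and the fitted value falls from 1.70 to 1.09 for Nr4a1 and goes from 0.47 to 0.70 for Nr4a3.

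Whether the LTP effect itself changed between the time points was tested as an interaction over 11 libraries. In this test 11 of 18584 genes were called (0.0592%), and no Nr4a gene was among them. The effect at 3 hr minus that at 1 hr was -0.60 (SE 0.207, unadjusted p = 0.0119, adjusted p = 0.584, edgeR) for Nr4a1, -0.059 (SE 0.144, adjusted p = 0.987) for Nr4a2 and 0.24 (SE 0.19, adjusted p = 0.916) for Nr4a3. The Nr4a1 difference passed the threshold when no filter on low counts was applied (-0.61, adjusted p = 0.0186, 0.359% of all genes called). It also passed when the 3 hr LTP library of animal 3 was left out (-0.84, adjusted p = 0.0195, 0.119% of all genes called). Without that library the Nr4a3 difference was 0.012 (adjusted p = 0.992).

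Control slices and LTP slices were then each compared between the time points. In control slices 32.8% of all genes tested were called, so a call is common in this comparison. Nr4a1 was 1.52-fold higher in 3 hr than in 1 hr control slices (log2 fold change 0.60, SE 0.158, adjusted p = 0.0112, edgeR), with all 3 hr control libraries above all 1 hr control libraries, the one left out included. Nr4a2 (0.083, SE 0.108, adjusted p = 0.601) and Nr4a3 (0.19, SE 0.143, adjusted p = 0.34) did not pass the test. In LTP slices 35.9% of genes were called, and Nr4a3 was the member among them. The Nr4a1 level was 135 CPM ± 9.12 (SD, n = 3) at 1 hr and 137 CPM ± 35.6 (SD, n = 3) at 3 hr, a log2 difference of 0.0023 (SE 0.136, adjusted p = 0.992, edgeR). Nr4a2 likewise did not pass the test (0.023, SE 0.0951, adjusted p = 0.87), whereas Nr4a3 was 1.35-fold higher at 3 hr (0.43, SE 0.127, adjusted p = 0.0175). That Nr4a3 difference fell to 0.22 without the 3 hr LTP library of animal 3, below the fold change needed for a call. Among cell type markers in LTP slices, 3 of 4 microglia markers were lower at 3 hr (summed level 135 to 150 CPM at 1 hr and 95.4 to 99.2 CPM at 3 hr), 2 of 4 oligodendrocyte markers were higher, 1 of 5 endothelial and mural markers was higher and 1 lower, 2 of 8 pyramidal neuron markers were higher and 2 lower, 2 of 5 GABAergic interneuron markers were lower and 1 of 4 astrocyte markers was higher. No marker of the other 3 lists was called. Their part in the Nr4a3 difference was not tested. Both comparisons share their libraries with the LTP vs. control tests. In control slices, of 4 microglia markers (P2ry12, Tmem119, Cx3cr1, Csf1r), 3 were lower in 3 hr than in 1 hr control slices, and their summed level was 152 CPM in both 1 hr control libraries and 96.7 to 109 CPM at 3 hr. Of 5 endothelial and mural markers 3 were also lower, of 4 oligodendrocyte markers 2 were higher, and of 8 pyramidal neuron markers 2 were higher and 2 lower. Of 5 GABAergic interneuron markers 1 was higher and 1 lower, of 4 astrocyte markers 1 was higher, of 4 dentate granule cell markers 1 was lower, and no deep-layer cortex or choroid plexus marker was called. The part of these cell types in the Nr4a1 difference was not tested.

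The make-up of the family was compared per length, as CPM per kb of annotated exon (RPKM), because longer transcripts yield more reads. In 1 hr control slices the summed family level was 37.3 RPKM ± 1.21 (SD, n = 2), to which Nr4a1 gave 32.1% ± 1.39, Nr4a2 28.5% ± 1.44 and Nr4a3 39.4% ± 0.0493. In 1 hr LTP slices the sum was 80.1 RPKM ± 2.97 (SD, n = 3), with 48.0% ± 1.62 from Nr4a1, 26.8% ± 2.2 from Nr4a2 and 25.2% ± 1.52 from Nr4a3. By this measure Nr4a3 had the largest share in the 1 hr control libraries used and Nr4a1 in 1 hr LTP slices. In the 1 hr control library left out the order was another, with 40.5% from Nr4a1 and 34.2% from Nr4a3. At 3 hr the sum was 47.1 RPKM ± 2.68 (SD, n = 3) in control slices and 88.6 RPKM ± 19.7 (SD, n = 3) in LTP slices. The share of Nr4a1 was 39.4% ± 2.55 in 3 hr control slices and 43.8% ± 1.91 in 3 hr LTP slices, that of Nr4a3 36.3% ± 2.39 and 31.1% ± 2.04, and that of Nr4a2 24.3% ± 0.232 and 25.1% ± 1.9.

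The order of levels depends on the length used, and which length fits the deposited counts is not settled. By exon length, Nr4a1, Nr4a3 and Nr4a2 stood at 38.5, 20.2 and 21.4 RPKM in 1 hr LTP slices, where Nr4a2 and Nr4a3 did not differ beyond their spread (SD 0.977 and 1.73). In 3 hr control slices Nr4a1 (18.5 RPKM, SD 1.39) and Nr4a3 (17.1 RPKM, SD 1.56) did not differ beyond their spread either. The study's text states that reads of coding regions were used, but whether the deposited counts cover coding regions only was not determined. Per annotated coding length (1803, 1794 and 1970 bases) Nr4a3 gave the largest share in 1 hr control (48.6%), 3 hr control (45.6%) and 3 hr LTP slices (39.9%), and Nr4a1 only in 1 hr LTP slices (40.5%). Per length of the longest transcript, Nr4a1 led in all 4 groups, with 37.4% against 35.1% for Nr4a3 in 1 hr control slices. By each length, the share of Nr4a1 was higher and that of Nr4a3 lower in LTP than in control slices at both time points. For Nr4a2 at 1 hr the direction depended on the length. Its share went from 28.5% to 26.8% by exon length and from 27.5% to 24.8% by longest transcript. By coding length it went from 26.1% (SD 1.28) to 26.3% (SD 2.21).

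**Figure D3:**
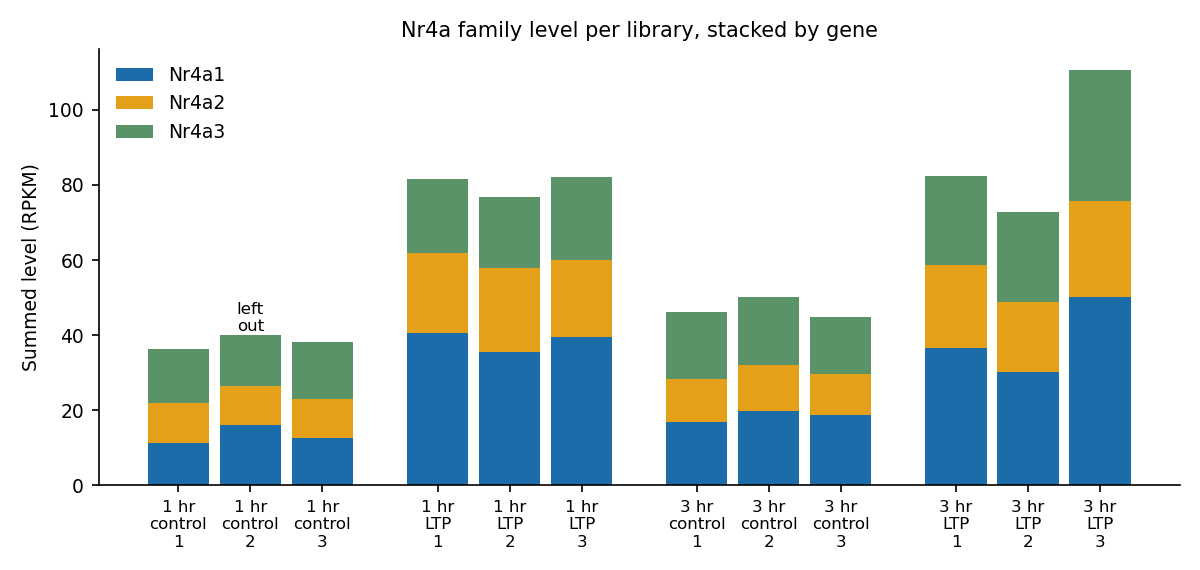
Summed level of the Nr4a genes in RPKM by annotated exon length (y axis, from 0) in each of the 12 libraries (x axis: time, treatment and animal), stacked by gene. The 1 hr control library left out of the tests is marked. LTP libraries hold 72.7 to 111 RPKM in all and the control libraries used 36.4 to 50.1 RPKM, with a wider Nr4a1 segment after LTP.

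Ratios of 2 members within a library do not depend on library scaling, so they were compared directly between LTP and control slices. At 1 hr the log2 ratio of Nr4a1 to Nr4a3 went from -1.07 (SD 0.0608, n = 2) in control slices to 0.16 (SD 0.0991, n = 3) in LTP slices, a difference of 1.23 in a two-sided exact permutation test with p = 0.2. The ratio of Nr4a1 to Nr4a2 differed by 0.67 and that of Nr4a2 to Nr4a3 by 0.56, each also with an exact p = 0.2, the smallest that 3 against 2 libraries allow. None of these ratios overlapped between the groups among the libraries used. In the 1 hr control library left out, the log2 ratio of Nr4a1 to Nr4a2 was 0.46, within the range of the LTP libraries (0.46 to 0.73), while those of Nr4a1 to Nr4a3 (-0.53) and of Nr4a2 to Nr4a3 (-0.99) lay below all 3 LTP libraries. At 3 hr the differences were 0.38 for Nr4a1 to Nr4a3 and 0.27 for Nr4a2 to Nr4a3, without overlap and each with an exact p = 0.1, the smallest that 3 against 3 libraries allow. The ratio of Nr4a1 to Nr4a2 differed by 0.11 with overlapping groups (exact permutation p = 0.4). Within animals this ratio was higher in the LTP slice in each of the 3 animals at 3 hr, by 0.14, 0.023 and 0.18, and an exact sign-flip test over 3 pairs cannot give a p below 0.25. Adjusted over the 6 permutation tests, the p-values were 0.24 for 5 of them and 0.4 for the last. None could have passed 0.05 with these numbers of libraries, so the p-values do not tell whether the ratios differ.

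The rest of the nuclear receptor superfamily was read against the share of all genes called, 0.789% at 1 hr and 6.6% at 3 hr. Of 46 other nuclear receptor genes listed (thyroid, retinoid, steroid, Rev-erb, Ror and related receptors), 33 were tested at 1 hr and none was called (edgeR, none had an unadjusted p under 0.05), with log2 fold changes from -0.23 to 0.25 and a median of 0.031. At 3 hr 34 were tested and 1 was called, with log2 fold changes from -0.49 to 0.38 and a median of -0.024, below all 3 Nr4a genes. These counts are near the share of all genes called and are no result about the list. Without the 3 hr LTP library of animal 3, 3 of 34 were called, against 7.45% of all genes in that fit, among them Nr2f2 at -0.44 and Nr2f6 at -0.42, which were named after their values were seen.

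**Figure D4:**
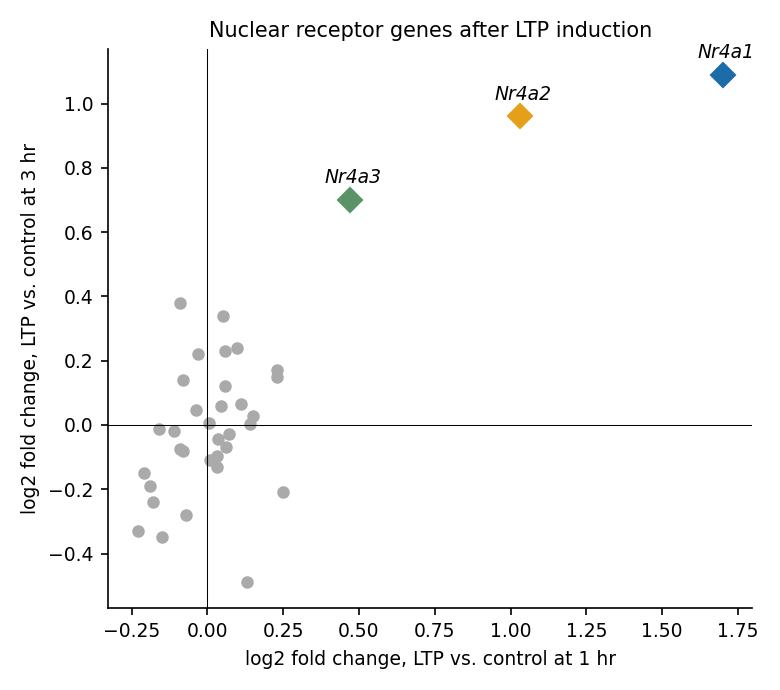
Log2 fold change of LTP vs. control at 1 hr (x axis) and 3 hr (y axis) for the Nr4a genes (coloured diamonds) and the other nuclear receptor genes tested at both time points (grey circles). The Nr4a genes lie at 0.47 to 1.70 and 0.70 to 1.09, apart from the grey circles, which lie between -0.23 and 0.25 at 1 hr and between -0.49 and 0.38 at 3 hr.

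Genes that act upstream of the Nr4a promoters were taken from lists of activators and repressors. Of 16 activators (CREB family, CRTC coactivators, MEF2 factors, SRF, Elk1, kinases), none was called at 1 hr (0.789% of all genes were), where 3 had an unadjusted p under 0.05 (edgeR), and the median log2 fold change was -0.0019 against -0.00103 over all genes. At 3 hr 3 were called, against 6.6% of all genes, all higher in LTP slices, with a median over the list of 0.063. Without the 3 hr LTP library of animal 3 that median was -0.024, against -0.0079 over all genes, with 2 called, against 7.45% of all genes. The called genes were Ep300 (0.62, adjusted p = 0.00837) and Crebbp (0.48, adjusted p = 0.0771), which encode the histone acetyltransferase coactivators p300 and CBP, and Crem (0.57, adjusted p = 0.0216), a CREB relative whose gene also makes a short repressor. Crebbp lost its call without the 3 hr LTP library of animal 3 (0.36, adjusted p = 0.109). Among the uncalled activators with the highest levels, the protein kinase A subunit gene Prkacb was at -0.029 and -0.13 at 1 hr and 3 hr, Mef2a at -0.031 and -0.048, and the calcium-dependent kinase gene Camk4 at -0.038 and -0.046.

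Among 9 repressors of the family (class I and IIa histone deacetylases, nuclear receptor corepressors and salt-inducible kinases) 1 was called at 1 hr and 4 at 3 hr, against 0.789% and 6.6% of all genes, all higher in LTP slices, with medians of 0.057 and 0.27. Without the 3 hr LTP library of animal 3 the 3 hr median was 0.17, with 3 called, against 7.45% of all genes in that fit. Sik1, a kinase that is itself induced by cAMP and holds CRTC coactivators out of the nucleus, was at 17.9 CPM ± 1.6 (SD, n = 2) in 1 hr control and 38.5 CPM ± 4.03 (SD, n = 3) in 1 hr LTP slices. Its log2 fold change was 1.12 (adjusted p = 2.2e-05, edgeR). At 3 hr it was 27.2 CPM ± 0.729 (SD, n = 3) and 62.7 CPM ± 10.4 (SD, n = 3). The rise at 3 hr was 1.21 on the log2 scale (adjusted p = 0.00172, edgeR), beside 1.09 for Nr4a1. Sik2 (0.59, adjusted p = 0.00551) and the class IIa deacetylase gene Hdac4 (0.34, adjusted p = 0.076) were also called at 3 hr. Hdac4 fell to 0.23, below the fold change needed, without the 3 hr LTP library of animal 3. The uncalled repressor genes with the highest levels were Ncor1 (0.044 and 0.17 at 1 hr and 3 hr), Sik3 (-0.0013 and 0.27) and Hdac5 (0.057 and 0.19).

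Partners and reported targets of the receptors were read against the same shares of all genes, 0.789% at 1 hr and 6.6% at 3 hr, and their counts of calls lie near them. Of 11 genes of partner proteins, none was called at 1 hr (edgeR, none with an unadjusted p under 0.05), and at 3 hr Rcor1, which encodes the CoREST corepressor that Nr4a2 recruits, was called at 0.33 (adjusted p = 0.0334). Trim28 (-0.044 and -0.039) and Kdm1a (-0.052 and 0.014), which had the highest levels among the partners, were not called. The retinoid X receptor genes Rxra, Rxrb and Rxrg were also uncalled at both time points. Of 13 reported target genes, 11 were tested at 1 hr and 12 at 3 hr, and none was called at either (edgeR, 5 and 0 with an unadjusted p under 0.05, against 1190 of 17736 genes at 1 hr and 3540 of 17508 at 3 hr), with medians of -0.021 and -0.046. Without a filter on low counts 2 of 13 were called at 1 hr, both higher, where 1.23% of all genes were called higher. At 1 hr the log2 fold changes of the 11 ran from -0.74 to 1.82. Slc18a2, the vesicular monoamine transporter gene, was at 1.83 CPM ± 1.02 (SD, n = 2) in control and 5.77 CPM ± 2.82 (SD, n = 3) in LTP slices (1.65, adjusted p = 0.126, edgeR), and the receptor tyrosine kinase gene Ret at 1.60 and 3.12 CPM (0.97, adjusted p = 0.665). Both were named after their values were seen. Among the targets with the highest levels, the neurotrophin gene Bdnf was at 0.21 (adjusted p = 0.362) and 0.065 (adjusted p = 0.575), and the chaperone genes Hspa5 at 0.097 and -0.035 and Pdia6 at -0.13 and -0.12. The dopamine pathway targets Th and Slc6a3, which Nr4a2 controls in the midbrain, were near 0 in these slices, at 0.224 and 0.16 CPM over all libraries.

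The 12 protein-coding genes nearest to the Nr4a genes, 2 on each side of each, were examined in the same way, and none was called, where 0.789% of all genes were at 1 hr and 6.6% at 3 hr. With 12 genes a count of 0 is near these shares. At 1 hr their log2 fold changes ran from -0.61 to 0.23 (lowest adjusted p = 0.878, none with an unadjusted p under 0.05, edgeR), and at 3 hr from -0.88 to 0.26 (lowest adjusted p = 0.0974, 4 with an unadjusted p under 0.05). The closest neighbour, the autophagy gene Atg101, starts 9477 bases past Nr4a1 and was at 0.03 at 1 hr and -0.26 at 3 hr (adjusted p = 0.0974), short of the fold change needed. Grasp and Acvr1b, on the other side of Nr4a1, were at -0.064 and -0.042 at 1 hr and -0.088 and -0.033 at 3 hr. Next to Nr4a2, the glycerol phosphate dehydrogenase gene Gpd2 was at -0.067 and -0.0055 and the potassium channel gene Kcnj3 at -0.013 and -0.047. Next to Nr4a3, Stx17 was at 0.01 and -0.054, Erp44 at 0.031 and -0.012, Sec61b at -0.048 and -0.21, and Alg2 at 0.00092 and 0.26 (adjusted p = 0.115).

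**Figure D5:**
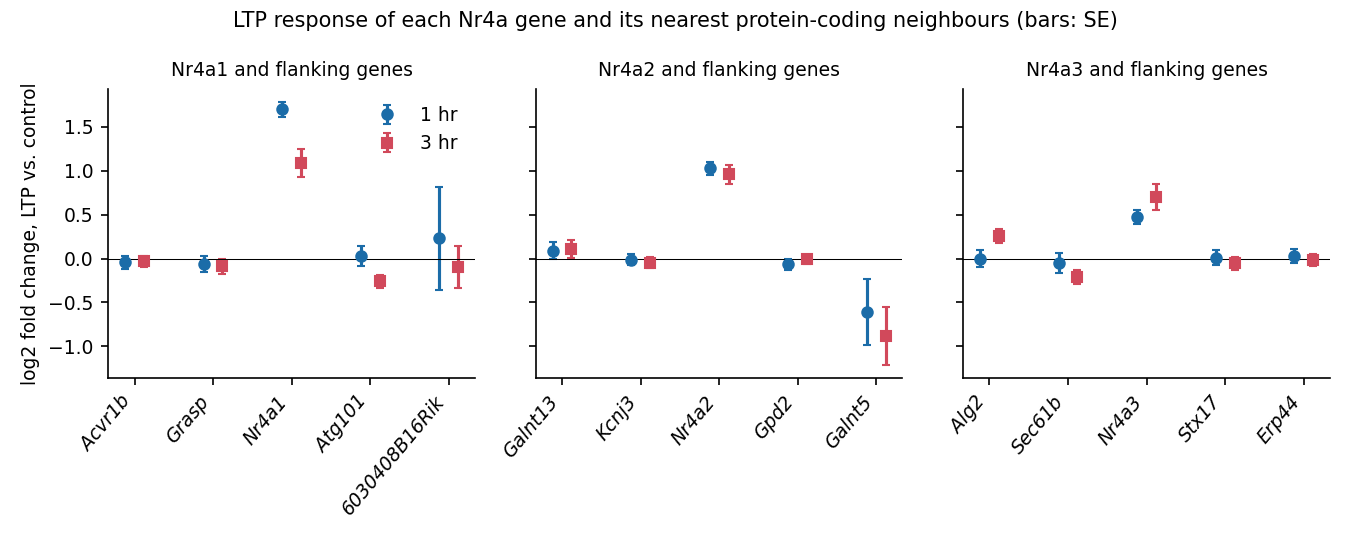
Log2 fold change of LTP vs. control (y axis) at 1 hr (blue circles) and 3 hr (red squares) for each Nr4a gene (centre of its panel) and the 2 nearest protein-coding genes on each side, in genome order and not to scale. Bars are SE. Each Nr4a gene stands above its neighbours at both time points, and the wide bars belong to low genes.

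The genes whose pattern was most like that of each member were found by Pearson's r of log2(CPM + 0.1) over 11 libraries, out of 14192 genes whose mean level reached 1 CPM. The libraries share 4 group means, so r mostly follows those, and it is given as a description. For Nr4a1 the closest were Trib1 (r = 0.987), a pseudokinase gene, Fosb (0.982), a Fos relative, and Mir212 (0.973), the locus of a CREB-induced microRNA whose reads may come from its host transcript. For Nr4a2 they were Fos (0.978), Fosb (0.978) and Gadd45g (0.972), a growth arrest gene. Having been chosen for this likeness, they have LTP effects like those of the pair by construction: the log2 fold changes of Fosb were 1.41 at 1 hr and 1.17 at 3 hr, and those of Trib1 1.24 and 0.67. Nr4a1 and Nr4a2 had r = 0.962 with each other.

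The pattern of Nr4a3 was less like that of the other two. Its r was 0.838 with Nr4a1 and 0.822 with Nr4a2, and 0.764 with Arc, against 0.97 for Nr4a1 and Arc. Among its closest genes were Ctnnd1 (r = 0.947), which encodes the adhesion protein p120 catenin, and Dxo (0.932), an RNA decapping enzyme gene. At 3 hr the log2 fold change of Dxo was 1.35. Of the 9 places in these rankings, 3 for each member with Fosb under both Nr4a1 and Nr4a2, only 3 were kept for the same member without the 3 hr LTP library of animal 3, 5 without the 1 hr control library of animal 1 and 5 without the 1 hr LTP library of animal 3.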

How the data were processed

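Total RNA depleted of ribosomal RNA was sequenced from 12 libraries. Per the labels and methods, the authors aligned reads to mm10 with STAR, counted them per gene in R and deposited raw counts. Strand use in counting is not given in the sources used here. The Ensembl identifiers were matched without version to GENCODE M21 (40217 of 41091 matched). edgeR 4.0.16 (filterByExpr, TMM, quasi-likelihood F test, R 4.3.3) was run on the counts over all genes. SE was taken as log2 fold change over the root of F. A call needed a Benjamini-Hochberg adjusted p below 0.1 with a change of more than 1.2-fold, the study's limits (interaction: no fold minimum). The script was tested on simulated data. The Nr4a genes and the gene lists were chosen with earlier results of these data known. Named genes were the members, list genes called at either time point, up to 3 uncalled regulators, partners and targets per list with the highest CPM, the 3 most correlated genes per member and 2 flanking genes on each side. Some genes under this rule are not reported here. Alternatives were DESeq2 1.42.0, limma-voom 3.58.1, other scalings, filters and left-out libraries.

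The numbers pair LTP and control slices, since the series description states that both came from the same animal. The correlation of deviations from the group means of same-numbered libraries was -0.0149, -0.156 and 0.075 at 1 hr and 0.0385, -0.0275 and 0.218 at 3 hr over 18240 genes. Depth was 37118382 to 50815001 counts, and the limit set by a count of 0 (3 counts) was 0.0584 to 0.0791 CPM, for counting error only.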

Additional observations from a re-analysis of the deposited data

Results flagged for a closer look

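Nr4a1 in the 1 hr control library of animal 2, which was not used in the tests, stood at 56.9 CPM, above the 39.7 and 44.2 CPM of the other 1 hr control libraries and below all 1 hr LTP libraries. Nr4a2 and Nr4a3 in the same library were below both other controls, at 41.2 and 82.0 CPM. Groups of 3 libraries were not tested for outliers.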

How the results depend on the processing

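Nr4a1 and Nr4a2 were called in LTP vs. control at both time points under every alternative run, with all libraries left out in turn: 1.62 to 1.78 and 0.99 to 1.06 at 1 hr, 0.86 to 1.25 and 0.83 to 1.07 at 3 hr. Nr4a3 ranged from 0.40 to 0.52 at 1 hr, losing its call without the control library of animal 1, which leaves 1 control library. At 3 hr it ranged from 0.48 to 0.80, losing its call without any 1 control library (1.28% to 2.33% of all genes called). In one model of 4 groups its 1 hr call was lost (0.46, adjusted p = 0.371). The replicate block (animal as a term) changed no member's call: 1.75, 0.99 and 0.52 at 1 hr, 1.06, 0.95 and 0.68 at 3 hr. With the library left out restored, Nr4a1 at 1 hr was 1.53. The interaction of Nr4a1 ran from -0.84 to -0.47 over left-out libraries and was called without a filter (-0.61, 1 member called), that of Nr4a2 from -0.19 to 0.031 and that of Nr4a3 from 0.012 to 0.32. In LTP slices between time points, Nr4a1 changed sign under limma-voom (-0.031) and ran from -0.22 to 0.16 over left-out libraries, Nr4a2 from -0.089 to 0.13 and Nr4a3 from 0.22 to 0.53, with 0 to 1 member called. The cause was not tested. By longest transcript the shares of Nr4a1 were 37.4 and 53.7% in control and LTP slices at 1 hr and 45.2 and 49.7% at 3 hr, those of Nr4a3 35.1, 21.5, 31.7 and 26.8%, and Nr4a2 23.1% in 3 hr control slices. By coding length, chosen after seeing the data, Nr4a1 gave 25.3, 40.5, 31.7 and 36.1%, Nr4a3 48.6, 33.2, 45.6 and 39.9%, and Nr4a2 26.1% in 1 hr and 22.7% in 3 hr control slices. Without a filter, 2 of 9 repressors and 2 of 13 targets were called at 1 hr (1.32% of all genes), and 2 of 44 other nuclear receptors and 5 of 16 activators at 3 hr (4.53% of all genes). Without the 3 hr LTP library of animal 3, also added after seeing the data, 3 of 34 other nuclear receptors were called (7.45% of all genes). From 3 to 9 of the 9 places among the most similar genes (3 for each member, Fosb in 2 of them) were kept over left-out libraries, 6 with all 12 libraries. Over all genes, counts of calls moved with left-out libraries, from 69 to 344 at 1 hr, 228 to 2170 at 3 hr and 1 to 67 for the interaction, which DESeq2 put at 80 and no filter at 102 (347 at 1 hr) against 11. A block with all 12 libraries gave 7.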
